A study of Mus musculus with 40 samples.

Results

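B16-F10 is a pigmented mouse melanoma cell line, and the gene expression changes described here are those between B16-F10 cells labelled Ctrl and B16-F10 cells labelled Bmal1 KO. The 4 libraries, 2 in each group, were chosen by their labels from the 40 libraries of the series. The remaining 36 were made from YUMM2.1 and YUMM1.7 melanoma cells and the aC3 clone, with or without Bmal1 constructs and Myh9 hairpins. The B16-F10 knockout cells were a single clone and the Ctrl cells were a single control clone, both obtained from another laboratory, so that the loss of Bmal1 and any other difference between these clones cannot be told apart. Both clones were kept in DMEM with fetal bovine serum, and their labels name no construct or hairpin. No hypoxia, drug or clock synchronization is stated for the sequenced cells.

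Bmal1, listed under the gene symbol Arntl, is a basic helix-loop-helix transcription factor that pairs with Clock and binds E-box DNA elements. The pair drives the Period, Cryptochrome and Rev-erb genes, whose products feed back on it, and so sets the daily rhythm of many output genes, including genes of metabolism, redox balance and cell division. In melanoma, cells also move between pigmented, melanocytic states and undifferentiated, invasive states, and both the matrix they make and the stress programs they run differ between these states. Accordingly, the comparison was read across all genes and then by groups of genes with a shared role.

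RNA was read at the 3′ end of polyadenylated transcripts by QuantSeq, and longer transcripts therefore do not collect more counts. The Ctrl libraries held 19348395 and 19367158 counts and the Bmal1 KO libraries held 22970049 and 21282282. Levels are given as CPM, the count relative to the library total after scaling with edgeR's TMM factors. The melanocytic label of the cells was checked by the summed level of 7 markers (Tyr, Tyrp1, Dct, Pmel, Mlana, Sox10 and Mitf), which was 25537 and 27570 CPM at the lowest and highest in Ctrl and 20739 and 22316 CPM in Bmal1 KO. The summed markers of leukocytes, endothelial cells and epithelial cells stayed between 0.821 and 7.18 CPM in all 4 libraries. Of these markers, Cd3e, Nkg7, Cdh5, Tek, Cldn5, Epcam, Krt8 and Krt18 were at 0. Others were detected, with Lyz2 at 1.15 to 5.39 CPM, Pecam1 at 3.92 to 5.18, Cd68 at 0.398 to 1.51 and Cdh1 at 0.821 to 1.86. Ptprc was at 0.205 CPM in Ctrl replicate 2 and 0.302 CPM in Bmal1 KO replicate 2. Arntl itself had 319 and 221 counts in Ctrl and 326 and 240 in Bmal1 KO, which gave -0.07 on the log2 scale (standard error 0.26). These 3′ reads do not check the knockout, since the position and nature of the edit are not stated, and the groups are therefore named by their labels throughout.

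Across 14556 genes with enough counts to test, 64 differed between Bmal1 KO and Ctrl at an edgeR adjusted p under 0.05, which is 0.44% of the tested genes. Of these, 32 were higher and 32 were lower in Bmal1 KO, or 0.22% each, and 1715 genes had an unadjusted p under 0.05. In each of the 64 genes, both Bmal1 KO libraries lay on the same side of both Ctrl libraries, a pattern that 23.5% of all tested genes showed in the higher direction and 24.3% in the lower. Among genes with more than 3 counts in the lower group, the rises ranged from 3.595-fold to 57.5-fold and the falls from 2.67-fold to 49.7-fold. The Bmal1 KO libraries differed from each other more than the Ctrl libraries did. Among genes with a mean of at least 100 counts, the SD over genes of the log2 CPM difference between replicates was 0.746 in Bmal1 KO and 0.278 in Ctrl. On the same counts, the 64 genes were all called again by DESeq2, which called 390 genes (2.48%). In simulated data for this comparison, 19.1% of edgeR calls and 28.5% of DESeq2 calls were false. A single edgeR fit of all 40 libraries, which called 1952 (11.7%), also included all 64 genes. Its spread was taken from all 20 groups, among which the Bmal1 KO pair was the least alike. Inclusion in that fit is therefore no separate support. With either Bmal1 KO library left out, the spread was taken from the more alike Ctrl pair alone and more genes passed. That the 64 were kept in those fits is therefore no separate support. Without Ctrl replicate 1, 52 genes passed, 37 of them among the 64, and without Ctrl replicate 2, 40 passed, 29 of them among the 64. The paper labels these libraries biological replicates but does not say whether they came from separate cultures. Each group was a single clone, and these p-values measure the spread between these libraries only.

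**Figure D1:**
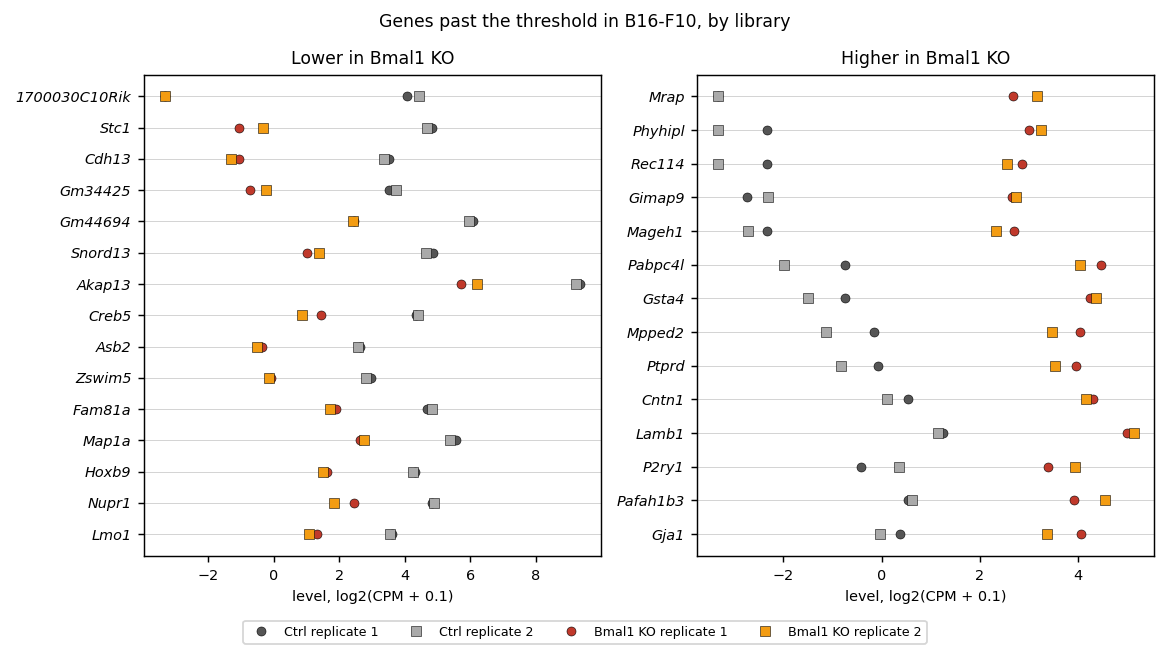
Levels, as log2(CPM + 0.1), of the 15 genes with the largest falls (left) and 14 of those with the largest rises (right) among called genes that averaged 50 counts or more. Each symbol is 1 library; the Ctrl and Bmal1 KO symbols do not overlap in any row.

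The gene with the highest Ctrl level among the large falls was Akap13 (ENSMUSG00000066406, chromosome 7, 75455534 to 75754609, GRCm38), which encodes a scaffold that anchors protein kinase A and also activates RhoA as a guanine nucleotide exchange factor. Akap13 was at 659 and 604 CPM in Ctrl and at 52.2 and 73.4 CPM in Bmal1 KO, a 10.1-fold fall. On the log2 scale it fell by 3.33 (standard error 0.24, edgeR adjusted p = 0.025). Gm44694, a transcript annotated inside Akap13, fell with it, from 67.8 and 63.0 CPM to 5.32 and 5.28 CPM. Reads of these overlapping genes may not be separable, since the strand used in counting is not stated. A second kinase A anchor, Akap6, named after its values were seen, was at 19.2 CPM in both Ctrl libraries and at 4.98 and 4.33 CPM in Bmal1 KO, with an edgeR adjusted p of 0.21 without Ctrl replicate 1 and 0.22 without Ctrl replicate 2.

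Cell adhesion and secreted genes were among the deep falls. Cdh13, a cadherin held to the membrane by a lipid anchor, was at 11.51 and 10.3 CPM in Ctrl and at 0.383 and 0.302 CPM in Bmal1 KO, a 31.1-fold fall (log2 fold change -4.96, standard error 0.35, edgeR adjusted p = 0.025). Cdh13 overlaps 5 other annotated genes. Stc1, a secreted glycoprotein, was at 28.3 and 25.6 CPM in Ctrl and at 0.383 and 0.705 CPM in Bmal1 KO. Timp3, a secreted inhibitor of matrix metalloproteinases, was at 90.1 and 97.1 CPM against 27.4 and 24.8 CPM (log2 fold change -1.84, standard error 0.17, edgeR adjusted p = 0.033), and its edgeR adjusted p was 0.094 and 0.15 without Ctrl replicate 1 and 2. Car8, a carbonic anhydrase relative without enzyme activity, and the noncoding 1700030C10Rik had 0 counts in both Bmal1 KO libraries, against 94 and 96 counts and 333 and 424 counts in Ctrl.

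Several falls were in transcription factors and in proteins of the neuronal cytoskeleton. Creb5, a bZIP factor that binds cAMP response elements, was at 20.2 and 21.2 CPM in Ctrl and at 2.64 and 1.71 CPM in Bmal1 KO (log2 fold change -3.24, standard error 0.31, edgeR adjusted p = 0.033). The homeobox gene Hoxb9 was at 19.7 and 18.9 CPM against 3.02 and 2.77 CPM, and the LIM-domain cofactor Lmo1 at 12.2 and 11.6 CPM against 2.43 and 2.01 CPM. Map1a, which binds microtubules, was at 47.6 and 41.3 CPM in Ctrl and at 6.09 and 6.64 CPM in Bmal1 KO, a 6.98-fold fall. Dpysl3, Basp1 and Fez1, which act in neurite growth or transport and are named after their values were seen, had log2 fold changes of -1.91, -1.84 and -1.61. Without Ctrl replicate 1 the edgeR adjusted p of Dpysl3, Basp1, Fez1 and Lmo1 was 0.15, 0.21, 0.35 and 0.15, and without Ctrl replicate 2 it was 0.13, 0.30, 0.34 and 0.15. Hoxb9 was at 0.057 without Ctrl replicate 2. Asb2, Zswim5, Fam81a, Gm34425 and the small nucleolar RNA Snord13 completed the 15 largest falls, with log2 fold changes from -4.29 to -2.97. The edgeR adjusted p was 0.15 for Asb2 with either Ctrl library left out, and 0.12 and 0.10 for Zswim5 without Ctrl replicate 1 and 2.

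The rises included genes that were nearly silent in Ctrl. Mrap, Hapln4 and Arhgef5 had 0 counts in both Ctrl libraries. Mrap, which brings the ACTH receptor to the cell surface, had 148 and 176 counts in Bmal1 KO, and Arhgef5, a guanine nucleotide exchange factor, had 89 and 93 and was at least 27.9-fold higher, taken against 3 counts per library. Phyhipl, Rec114, Gimap9, Mageh1 and Pard3b had 1 to 3 counts in the Ctrl libraries together. For Mageh1, with 2 and 1 counts in Ctrl and 149 and 98 in Bmal1 KO, the ratio was 75.1 with a 95% counting interval from 25.4 to 367. For the cell polarity gene Pard3b, with 0 and 1 counts against 102 and 82, the ratio was 168 with an interval from 29.8 to 6668. These intervals cover counting error only.

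Several of the rises from low but measurable levels were in membrane and adhesion proteins. Cntn1, an immunoglobulin-type adhesion protein of neurons, was at 1.34 and 0.975 CPM in Ctrl and at 19.7 and 17.8 CPM in Bmal1 KO, a 16.1-fold rise (log2 fold change 4.01, standard error 0.30, edgeR adjusted p = 0.025). Gja1, the gap junction protein connexin 43, was at 1.195 and 0.872 CPM against 16.6 and 10.3 CPM. The receptor phosphatase Ptprd was at 0.847 and 0.462 CPM against 15.5 and 11.4 CPM, and the ADP receptor P2ry1 at 0.647 and 1.18 CPM against 10.4 and 15.1 CPM. All of these genes stayed under 2 CPM in Ctrl and passed 10 CPM in both Bmal1 KO libraries. The edgeR adjusted p was 0.076 for Gja1 without Ctrl replicate 2 and 0.052 for P2ry1 without Ctrl replicate 1. Slit2, a secreted guidance ligand for Robo receptors, was higher from a starting level of 5.98 and 5.90 CPM, reaching 28.3 and 25.1 CPM (log2 fold change 2.17, standard error 0.22, edgeR adjusted p = 0.036). The edgeR adjusted p of Slit2 was 0.21 and 0.24 without Ctrl replicate 1 and 2.

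Gsta4, a glutathione transferase that acts on lipid peroxidation products, was at 0.498 and 0.257 CPM in Ctrl and at 18.9 and 20.5 CPM in Bmal1 KO, a 51.3-fold rise (log2 fold change 5.68, standard error 0.38, edgeR adjusted p = 0.025). Pafah1b3, a subunit of a platelet-activating factor acetylhydrolase, was at 1.34 and 1.44 CPM against 14.9 and 23.2 CPM. Pabpc4l, a relative of poly(A)-binding proteins, was at 0.498 and 0.154 CPM against 21.97 and 16.4 CPM, and Mpped2 was at 0.797 and 0.359 CPM against 16.4 and 11.0 CPM. Among genes named after their values were seen, Pygl (glycogen phosphorylase) and Isyna1 (inositol phosphate synthase) had log2 fold changes of 2.91 and 3.25, and Kremen1, a receptor for Dickkopf inhibitors of Wnt signalling, had 2.82. The highest mean Bmal1 KO level among the called rises outside Rgs7bp was that of the melanocyte coregulator Cited1. Its level was 18.7 and 22.3 CPM in Ctrl and 83.9 and 73.7 CPM in Bmal1 KO (log2 fold change 1.94, standard error 0.20, edgeR adjusted p = 0.036). Without Ctrl replicate 1 and 2 the edgeR adjusted p of Cited1 was 0.23 and 0.14, and that of Pygl was 0.059 and 0.14. Without Ctrl replicate 2 it was 0.059 for Isyna1 and 0.069 for Kremen1.

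To see which programs moved, 29 lists of genes with a shared role were described by the direction of their tested members. The median log2 fold change over all tested genes was -0.01. It was at or below -0.50 in 4 lists, namely undifferentiated and invasive melanoma state (-1.08), amino acid starvation and ATF4 targets (-0.83), immediate early and AP-1 genes (-0.54) and hypoxia genes outside glycolysis (-0.52). It was above 0.40 in 3 lists, which were NRF2 targets (0.56), basement membrane genes (0.42) and MHC class I presentation (0.42). Few single members passed the edgeR test in any list. In simulated data for this comparison, that test recovered 5% of genes with a log2 change of 1, so its absence of calls leaves such changes undecided. Where calls by DESeq2 or by the fit of all 40 libraries are also given, they read against shares of the genes that each tested. DESeq2 called 1.2% of 15700 genes higher and 1.28% lower, and the fit of 40 libraries 7.15% and 4.6% of 16619. Of the 14556 genes of the main test, DESeq2 called 186 higher and 200 lower. The fit of 40 libraries called 1155 and 718 of them. Its spread came mostly from other lines, whose replicates were more alike, so its calls are no separate support.

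**Figure D2:**
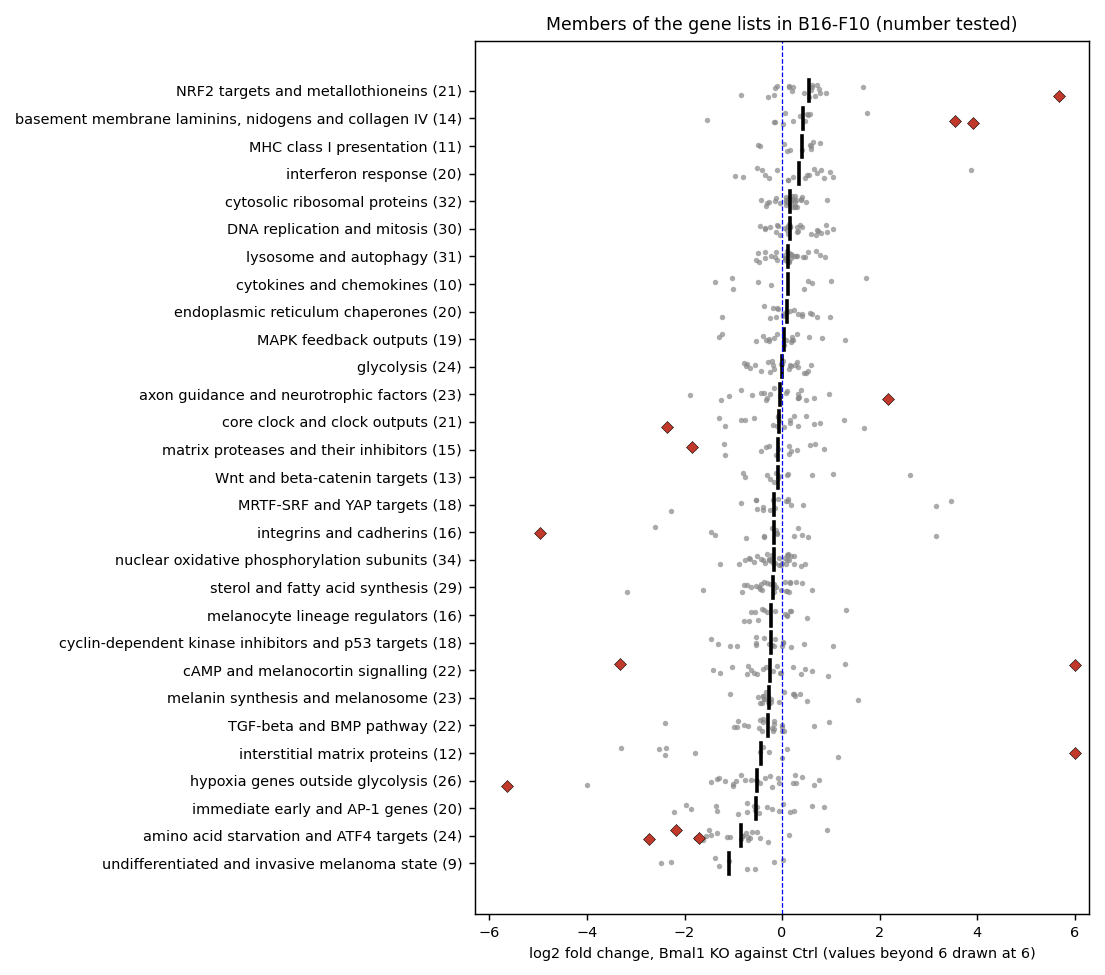
Log2 fold changes (Bmal1 KO against Ctrl) of the tested members of 29 gene lists, ordered by the median. Grey points are members, red diamonds are members past the edgeR threshold, black bars are list medians and the dashed line is the median of all tested genes; the lists of invasive state and ATF4 target genes sit furthest to the left, with medians of -1.08 and -0.83.

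ATF4 is a transcription factor whose translation is favoured when amino acids run short or the endoplasmic reticulum is stressed, and it drives genes for amino acid synthesis, amino acid transport and the damping of the stress signal. Of 24 tested genes on this list, 22 had a log2 fold change below 0 and 20 had both Bmal1 KO libraries below both Ctrl libraries, against 24.3% of all tested genes. The edgeR test called 3 of them, all lower (Nupr1, Atf5 and Trib3), DESeq2 called 9 and the fit of 40 libraries called 17, all lower, where 0.22%, 1.28% and 4.6% of all tested genes were called lower. Nupr1, a small stress-induced chromatin protein, was at 28.7 and 29.8 CPM in Ctrl and at 5.32 and 3.47 CPM in Bmal1 KO (log2 fold change -2.73, standard error 0.29, edgeR adjusted p = 0.036). Atf5, a bZIP factor related to ATF4, was at 225 and 233 CPM against 41.5 and 59.6 CPM (log2 fold change -2.18, standard error 0.23, edgeR adjusted p = 0.036). Trib3, a pseudokinase that binds ATF4, was at 82.2 and 77.2 CPM against 23.6 and 25.5 CPM (log2 fold change -1.70, standard error 0.17, edgeR adjusted p = 0.036). Without Ctrl replicate 1 the edgeR adjusted p was 0.034 for Nupr1, 0.042 for Atf5 and 0.23 for Trib3, and without Ctrl replicate 2 it was 0.059, 0.058 and 0.16.

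Members of the list that did not pass the main test are named here after their values were seen. Atf4 itself was at 515 and 543 CPM in Ctrl and at 282 and 318 CPM in Bmal1 KO, or -0.82 on the log2 scale (standard error 0.17, edgeR adjusted p = 0.16). Asparagine synthetase, Asns, was at 174 and 180 CPM against 88.2 and 72.9 CPM, and Chac1, which degrades glutathione, was at 66.5 and 61.8 CPM against 26.01 and 19.3 CPM. The serine synthesis enzyme Phgdh was at 280 and 277 CPM against 176 and 168 CPM, and the mitochondrial folate enzyme Mthfd2 at 478 and 494 CPM against 293 and 291 CPM. Each of these 5 genes was lower in both Bmal1 KO libraries. Slc7a5, which imports large neutral amino acids, was lower as well but uneven between the replicates, at 96.4 and 74.7 CPM in Ctrl and at 38.8 and 11.3 CPM in Bmal1 KO. Slc7a11, the cystine importer, and Shmt2 had overlapping groups. Outside the list, mitochondrial Pck2 and the folate enzyme Aldh1l2 passed the threshold, with log2 fold changes of -1.74 (standard error 0.19, edgeR adjusted p = 0.036) and -1.85 (standard error 0.19, edgeR adjusted p = 0.036). Without Ctrl replicate 1 the edgeR adjusted p was 0.19 for Pck2 and 0.11 for Aldh1l2, and without Ctrl replicate 2 it was 0.20 and 0.14.

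**Figure D3:**
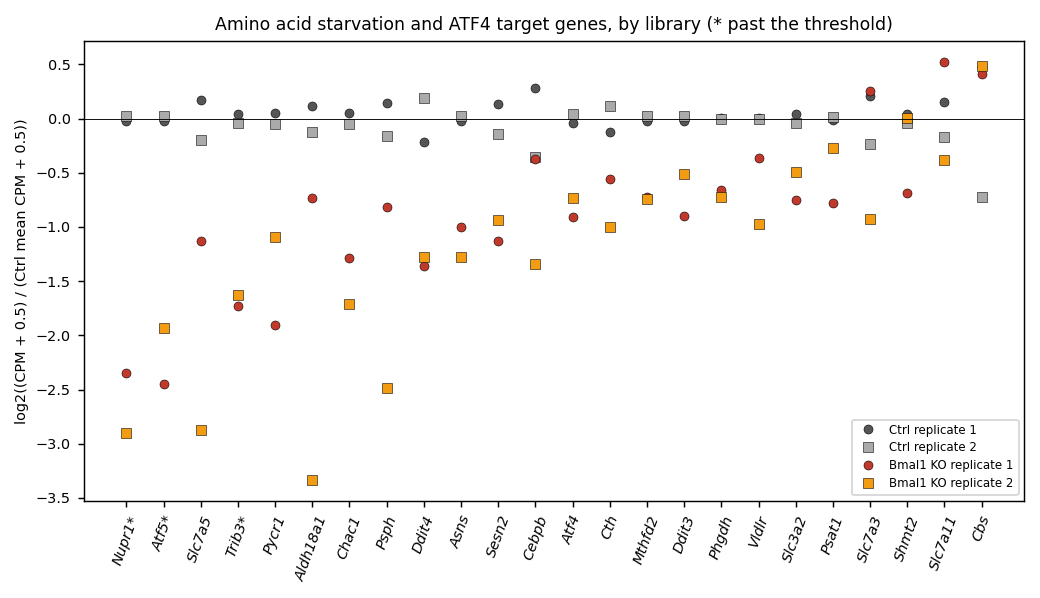
Level of each of the 24 tested amino acid starvation and ATF4 target genes in each library, as the log2 ratio of CPM + 0.5 to the Ctrl mean + 0.5. Both Bmal1 KO symbols lie below both Ctrl symbols for 20 of the 24 genes; an asterisk marks the 3 genes past the threshold.

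The promoter windows of 5 of these genes are shown because each contains the composite element that ATF4 and its partners bind, TGATGNAAN, searched on both strands in the 300 bases from 250 before to 50 after the annotated start (RefSeq, GRCm38.p6). Capitals mark the element, and sequences run 5′ to 3′ along the gene.
Trib3, chr2:152344011-152344310, minus strand: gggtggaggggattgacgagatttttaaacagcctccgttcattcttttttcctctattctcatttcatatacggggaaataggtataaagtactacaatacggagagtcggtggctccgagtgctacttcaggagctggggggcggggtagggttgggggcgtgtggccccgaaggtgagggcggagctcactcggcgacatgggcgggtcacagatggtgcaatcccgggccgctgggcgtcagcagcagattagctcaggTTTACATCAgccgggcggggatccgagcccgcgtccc
Nupr1, chr7:126625421-126625720, minus strand: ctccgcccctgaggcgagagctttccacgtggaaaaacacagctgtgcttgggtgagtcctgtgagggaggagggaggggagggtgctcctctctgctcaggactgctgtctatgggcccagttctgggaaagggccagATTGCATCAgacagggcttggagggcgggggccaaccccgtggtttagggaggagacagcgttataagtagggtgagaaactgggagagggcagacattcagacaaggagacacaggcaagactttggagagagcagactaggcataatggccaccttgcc
Asns, chr6:7693160-7693459, minus strand: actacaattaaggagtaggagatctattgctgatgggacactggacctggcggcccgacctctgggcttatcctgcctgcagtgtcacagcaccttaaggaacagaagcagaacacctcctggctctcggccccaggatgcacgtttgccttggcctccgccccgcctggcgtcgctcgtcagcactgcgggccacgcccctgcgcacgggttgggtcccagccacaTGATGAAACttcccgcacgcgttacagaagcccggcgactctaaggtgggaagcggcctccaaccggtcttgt
Chac1, chr2:119350992-119351291, plus strand: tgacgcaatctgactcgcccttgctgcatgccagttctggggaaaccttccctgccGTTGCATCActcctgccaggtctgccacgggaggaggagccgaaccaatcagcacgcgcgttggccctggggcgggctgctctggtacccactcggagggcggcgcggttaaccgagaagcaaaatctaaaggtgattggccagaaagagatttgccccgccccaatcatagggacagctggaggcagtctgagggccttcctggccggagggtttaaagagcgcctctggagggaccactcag
Pck2, chr14:55540016-55540315, plus strand: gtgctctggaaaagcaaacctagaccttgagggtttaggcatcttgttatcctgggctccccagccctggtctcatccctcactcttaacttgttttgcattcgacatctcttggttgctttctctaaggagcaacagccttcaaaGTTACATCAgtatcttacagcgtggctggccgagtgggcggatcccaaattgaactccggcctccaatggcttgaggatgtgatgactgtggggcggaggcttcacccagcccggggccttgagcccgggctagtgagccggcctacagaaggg

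The element starts 111 bases before the start of Nupr1, 23 before Asns, 194 before Chac1 and 104 before Pck2, while in Trib3 it lies after the start, at base 14. It was found in 3.95% of all 32851 windows and in 4.496% of the 27025 genes with a window. Of the 25 listed genes, 22 had a window and 8 had a match (Asns, Chac1, Fgf21, Nupr1, Pycr1, Slc7a11, Trib3 and Vldlr). Slc7a11, which has a match, did not move with the others. Among the called genes with a window, the element occurred in 4 of 24 that fell (Creb5, Nupr1, Pck2 and Trib3) and 0 of 22 that rose. The E-box letters CACGTG, which Bmal1 and Clock bind among other factors, were in 7.15% of all windows and 8.09% of all genes with a window, in 4 of the 24 that fell (Asb2, Creb5, Fez1 and Nupr1) and in 2 of the 22 that rose (Rec114 and Trim25). A match gives the letters only and is not evidence of binding.

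The basement membrane is the sheet of laminin, collagen IV, nidogen and perlecan under epithelia and around vessels. Of 14 tested genes for its parts, 11 were above 0 and 2 rose, with a median log2 fold change of 0.42 (0.61 without Bmal1 KO replicate 1 and 0.24 without replicate 2). Lamb1, the laminin beta 1 chain (ENSMUSG00000002900, chromosome 12, 31265234 to 31329644), was at 2.29 and 2.104 CPM in Ctrl and at 31.9 and 34.9 CPM in Bmal1 KO, a 15.2-fold rise (log2 fold change 3.92, standard error 0.24, edgeR adjusted p = 0.025). Col4a1, the collagen IV alpha 1 chain, was at 1.195 and 0.924 CPM against 11.7 and 13.3 CPM, an 11.7-fold rise (log2 fold change 3.55, standard error 0.31, edgeR adjusted p = 0.033). Without Ctrl replicate 2 the edgeR adjusted p of Col4a1 was 0.068. Its partner chain Col4a2, named after its values were seen, was at 2.74 and 2.31 CPM against 8.43 and 8.40 CPM (log2 fold change 1.73, standard error 0.29, edgeR adjusted p = 0.12). The laminin partner chain Lamc1 had a log2 fold change of 0.06, and Col4a4 was at -1.54.

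Col4a1 and Col4a2 are read in opposite directions from neighbouring starts, and the Col4a1 window is shown because it overlaps that of Col4a2 (chr8:11312555-11312854, plus strand). Capitals mark the 78 bases that the 2 windows share.
Col4a1, chr8:11312777-11313076, minus strand: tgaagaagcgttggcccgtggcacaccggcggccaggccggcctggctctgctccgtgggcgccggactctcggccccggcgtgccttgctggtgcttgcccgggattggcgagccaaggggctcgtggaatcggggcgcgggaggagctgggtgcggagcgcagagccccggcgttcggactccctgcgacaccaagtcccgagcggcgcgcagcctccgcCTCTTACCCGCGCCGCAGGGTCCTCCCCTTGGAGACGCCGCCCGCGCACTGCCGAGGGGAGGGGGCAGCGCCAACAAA

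Fibrillar and other interstitial matrix genes did not follow the basement membrane genes. Of 12 tested, 9 were below 0 with a median of -0.42 (-1.67 without Bmal1 KO replicate 1 and -0.70 without replicate 2), and 1 passed the threshold, the hyaluronan link protein gene Hapln4, which was at least 30.3-fold higher. Col1a1 was at 1.44 and 1.39 CPM in Ctrl and at 0.128 and 0.151 CPM in Bmal1 KO, and Col1a2 at 8.87 and 8.36 CPM against 3.36 and 1.61 CPM, with edgeR adjusted p of 0.16 and 0.21. Postn, named after its values were seen, was at 7.62 and 5.39 CPM against 1.92 and 0.554 CPM. Summed over the 7 fibroblast markers, which include both collagen I chains, the level was 10.1 to 11.51 CPM in Ctrl and 2.06 to 4.04 CPM in Bmal1 KO. The markers Lum and Thy1 were at 0 in all 4 libraries, Dcn was at most 0.0996 CPM, and the part of other cells in these values was not tested. In bulk libraries, fewer cells of a kind and less RNA per cell cannot be told apart.

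Among integrins and cadherins, 11 of 16 tested genes were below 0, with a median of -0.17, and Cdh13 alone passed the edgeR test, while the fit of 40 libraries called 7 lower and 1 higher. Cdh2 (N-cadherin) was at 165 and 154 CPM in Ctrl and at 68.2 and 54.1 CPM in Bmal1 KO (log2 fold change -1.38, standard error 0.19, edgeR adjusted p = 0.076). The fibronectin receptor chain Itga5 was at 0.398 and 0.154 CPM against 2.21 and 2.82 CPM (edgeR adjusted p = 0.16), while fibronectin itself, Fn1, was at -0.27 on the log2 scale. Matrix proteases and their inhibitors had a median of -0.08 over 15 tested (-0.38 without Bmal1 KO replicate 1 and 0.05 without replicate 2), with Timp3 the single edgeR call.

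Genes of the undifferentiated, invasive melanoma state had the lowest median of the 29 lists, although none passed the edgeR threshold. Of 9 tested, 8 were below 0 with a median of -1.08, and DESeq2 and the fit of 40 libraries each called 4 lower and 0 higher (Axl, Cdh2, Pdgfrb and Sox9), against 1.28% and 4.6% of all tested genes called lower. Pdgfrb, a growth factor receptor, was at 7.77 and 7.65 CPM in Ctrl and at 1.53 and 1.21 CPM in Bmal1 KO (log2 fold change -2.48, standard error 0.32, edgeR adjusted p = 0.063). The receptor kinase Axl was at 4.88 and 4.93 CPM against 1.49 and 0.503 CPM (log2 fold change -2.28, standard error 0.55, edgeR adjusted p = 0.23). Both genes had separate groups, and Axl was the less even of the pair between the Bmal1 KO libraries. The other 13 members of the 22 listed did not have enough counts to test.

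Of 23 tested genes of melanin synthesis and the melanosome, 16 were below 0, with a median of -0.27 and 0 edgeR calls. Dct, which acts in eumelanin synthesis, was at 16792 and 18390 CPM in Ctrl and at 14373 and 12960 CPM in Bmal1 KO, and the fibril protein Pmel was at 4315 and 4541 CPM against 3608 and 3211 CPM (edgeR adjusted p = 0.46 and 0.45). Gpnmb, a melanosome and lysosome glycoprotein, pointed the other way, at 2799.5 and 2859 CPM against 3623 and 4496 CPM, and Oca2 was at 2.34 and 3.49 CPM against 10.1 and 7.05 CPM. Of 16 tested regulators of the lineage, 0 passed. Mitf and Sox10, which direct the pigment program, had log2 fold changes of 0.19 and 0.51. The receptor kinase Met was at 360 and 369 CPM in Ctrl and at 804 and 1016 CPM in Bmal1 KO (log2 fold change 1.32, standard error 0.19, edgeR adjusted p = 0.088).

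Signalling lists were mixed in direction. Immediate early and AP-1 genes, which respond within minutes to growth signals, were below 0 in 15 of 20 tested genes, with a median of -0.54, 0 edgeR calls and 3 DESeq2 calls, all lower (Atf3, Klf4 and Nr4a3). Klf4 was at 13.3 and 13.2 CPM in Ctrl and at 3.36 and 3.88 CPM in Bmal1 KO, and Nr4a3 was at 75.6 and 74.6 CPM against 28.8 and 29.8 CPM. The median of this list was -1.13 without Bmal1 KO replicate 1 and -0.26 without replicate 2. In the cAMP and melanocortin list, 15 of 22 tested genes were below 0 (median -0.26, and 0.01 without replicate 2), with Mrap called higher and Akap13 lower. The melanocortin receptor of pigment cells, Mc1r, was at -0.39 on the log2 scale.

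Targets of MRTF-SRF and YAP (18 tested, median -0.17), MAPK feedback outputs (19, median 0.04) and Wnt and beta-catenin targets (13, median -0.09) gave 0 edgeR calls, and these medians rested on single libraries. Without Bmal1 KO replicate 1 they were -0.57, -0.25 and -0.13, and without replicate 2 they were -0.12, 0.07 and 0.16. In the TGF-beta and BMP list, 17 of 22 genes were below 0 with a median of -0.30 (-0.48 without Bmal1 KO replicate 1 and -0.21 without replicate 2), with 0 edgeR calls and 5 lower and 2 higher in the fit of 40 libraries. Id3, an inhibitor of helix-loop-helix factors, was at 14.4 and 16.4 CPM in Ctrl and at 4.39 and 1.36 CPM in Bmal1 KO (log2 fold change -2.41, standard error 0.54, edgeR adjusted p = 0.21). Axon guidance and neurotrophic genes were centred at -0.05 over 23 tested, with Slit2 the single call.

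NRF2 is the transcription factor that induces glutathione, thioredoxin and pentose phosphate enzymes under oxidative stress. Of 21 tested targets, metallothioneins included, 16 were above 0, with a median of 0.56. The edgeR test called Gsta4, DESeq2 called 2, and the fit of 40 libraries called 11 higher and 0 lower, against 0.22%, 1.2% and 7.15% of all tested genes called higher. Sulfiredoxin, Srxn1, was at 47.6 and 46.1 CPM in Ctrl and at 82.3 and 91.5 CPM in Bmal1 KO, and thioredoxin reductase, Txnrd1, was at 196 CPM in both Ctrl libraries against 294 and 330 CPM. Nqo1, a quinone reductase, was at 1.10 and 1.64 CPM against 3.70 and 4.93 CPM. These 3 genes, named after their values were seen, were separated by group but did not pass the edgeR test (adjusted p = 0.14, 0.23 and 0.23). Hmox1 was at -0.10, and Mt1 and Mt2 were at -0.29 and -0.85 on the log2 scale. The median of the list was 0.63 without Bmal1 KO replicate 1 and 0.26 without replicate 2. Gstp1, a member of the list, has a near-identical copy that took an uneven share of reads.

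Of 26 tested hypoxia genes outside glycolysis, 20 were below 0. Both Bmal1 KO libraries lay below both Ctrl libraries in 17, against 24.3% of all tested genes. Stc1 was the single edgeR call, DESeq2 called 6 lower and 0 higher, and the fit of 40 libraries called 12 lower and 1 higher, against 0.22%, 1.28% and 4.6% of all tested genes called lower. Sterol and fatty acid synthesis genes were below 0 in 20 of 29 (median -0.19), with 0 edgeR calls, 2 lower by DESeq2, and 8 lower and 1 higher in the fit of 40 libraries. Oxidative phosphorylation subunits encoded in the nucleus had a median of -0.17 over 34 tested and cytosolic ribosomal proteins a median of 0.17 over 32, both with 0 edgeR calls. The first was -0.035 without Bmal1 KO replicate 1 and the second 0.018 without replicate 2. In the fit of 40 libraries, 5 oxidative phosphorylation genes were lower and 1 higher. Glycolysis genes had a median of -0.01 over 24, which was 0.19 without Bmal1 KO replicate 1 and -0.26 without replicate 2. Endoplasmic reticulum chaperones had a median of 0.09 over 20 (-0.07 without Bmal1 KO replicate 1 and 0.38 without replicate 2), with Hspa5 (BiP) at 1219 and 1385 CPM against 1726 and 2232 CPM and Herpud1 at 136 and 138 CPM against 64.2 and 52.6 CPM (edgeR adjusted p = 0.35 and 0.090). Lysosome and autophagy genes had a median of 0.12 over 31 (0.22 without Bmal1 KO replicate 1 and -0.017 without replicate 2), and the autophagy receptor Sqstm1 was at 379 and 392.3 CPM against 622 and 806 CPM (log2 fold change 0.89, standard error 0.19, edgeR adjusted p = 0.19). Of 21 clock genes, Nr1d2 (REV-ERB beta) was the single edgeR call. The clock list as a whole was centred at -0.07, with Cry1, named after its values were seen, at 6.82 and 7.29 CPM in Ctrl and at 15.5 and 30.0 CPM in Bmal1 KO.

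Of 30 tested genes of DNA replication and mitosis, 22 were above 0 with a median of 0.16, and the fit of 40 libraries called 11 higher and 0 lower, while the edgeR fit of 4 libraries called 0. Over all tested genes 7160 of 14556 were above 0, and the fit of 40 libraries called 7.15% higher. Ccne2 (cyclin E2) was at 37.6 and 38.1 CPM in Ctrl and at 61.2 and 95.8 CPM in Bmal1 KO, Ccnb1 (cyclin B1) at 97.5 and 109 CPM against 172 and 185 CPM, and Mcm3, of the replicative helicase, at 243 and 237 CPM against 362 and 431 CPM. These 3 had edgeR adjusted p of 0.23, 0.18 and 0.23. The proliferation marker Mki67 was at -0.09. Inhibitors of cyclin-dependent kinases and p53 targets were below 0 in 13 of 18 (median -0.23), with 0 edgeR calls.

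No immune gene on the lists for interferon response, MHC class I or cytokines passed the edgeR test. Interferon response genes were above 0 in 13 of 20 (median 0.35) and MHC class I presentation genes in 9 of 11 (median 0.42, and 0.17 without Bmal1 KO replicate 2), and the fit of 40 libraries called 4 higher and 0 lower in each, against 7.15% of all tested genes called higher. Outside the list, the interferon-induced GTPase Gbp7 passed, at 0.697 and 1.03 CPM against 8.52 and 11.6 CPM (log2 fold change 3.54, standard error 0.38, edgeR adjusted p = 0.036), as did the ubiquitin ligase Trim25. The edgeR adjusted p of Gbp7 was 0.075 and 0.058 without Ctrl replicate 1 and 2, and that of Trim25 was 0.14 and 0.16. Of 29 cytokine and chemokine genes, 10 had enough counts to test and 0 passed. The class I heavy chains H2-D1 and H2-K1 had log2 fold changes of 0.59 and -0.46.

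The largest differences in mean CPM were in very abundant genes, none of which passed the edgeR test. The largest rises in mean CPM were in Actb, Hsp90ab1, Ftl1, Tuba1b and Hsp90aa1, with log2 fold changes from 0.37 to 0.73, and the largest falls in Lrrc17, Gm42418, Dct, Malat1 and Eef1a1, from -0.64 to -0.28. Actb was at 6935 and 6771 CPM in Ctrl and at 7905 and 12078 CPM in Bmal1 KO. Lrrc17, a secreted leucine-rich repeat protein, was at 9887 and 13100 CPM against 8730 and 6020 CPM. In most of these genes the second Bmal1 KO library was the further from Ctrl.

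The 6 chromosomes with medians furthest from 0 were picked after their values were seen, and the other 14 ranged from -0.05 to 0.10. No clear gap set the 6 apart on the upper side, where X was at 0.104 and chromosome 15 at 0.102. The median log2 fold change was -0.43 over 334 tested genes on chromosome 18, -0.31 over 589 on chromosome 12 and -0.15 over 798 on chromosome 8, and it was 0.22 over 539 on chromosome 13, 0.13 over 801 on chromosome 6 and 0.12 over 841 on chromosome 3. On chromosome 18, 85.3% of the tested genes were below 0. Each Bmal1 KO library was also set alone against the Ctrl mean. The medians for replicate 1 and 2 were -0.33 and -0.45 on chromosome 18, and -0.24 and -0.30 on chromosome 12. They were -0.17 and -0.098 on chromosome 8, and 0.25 and 0.16 on chromosome 13. On chromosome 6 they were 0.15 and 0.13, and on chromosome 3 they were 0.15 and 0.07. Chromosome 15, which was not among the 6, was at 0.026 and 0.16, so the smaller shifts do not stand apart. The same medians between the Ctrl libraries stayed from -0.02 to 0.02 on all 20 chromosomes, and between EV and WT-Bmal1 cells of aC3 they stayed from -0.04 to 0.11. Along chromosome 8 the shift was uneven, with window medians from -0.12 to 0.08 over the 20 Mb windows up to 80 Mb and from -0.46 to -0.23 beyond it. On chromosome 13 the medians were from 0.17 to 0.36 between 20 and 120 Mb and -0.14 before 20 Mb. The number of copies of these chromosomes was not measured. Subtracting each chromosome's median from its genes moved the ATF4 list median to -0.92 and the invasive state median to -0.95, and Lamb1 and Cdh13 lie on chromosomes 12 and 8.

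**Figure D4:**
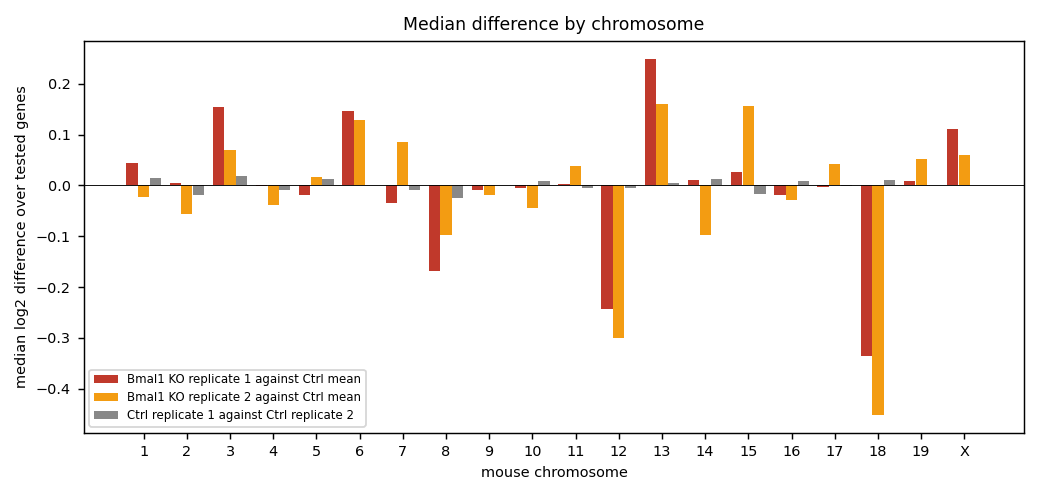
Median log2 difference in CPM over the tested genes of each mouse chromosome. Bars from 0 give Bmal1 KO replicate 1 and replicate 2, each against the Ctrl mean, and Ctrl replicate 1 against Ctrl replicate 2; chromosomes 18 and 12 are low and chromosome 13 is high in both Bmal1 KO libraries.

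To ask whether these changes were shared by another Bmal1-null melanoma line, the response of B16-F10 was compared with that of aC3, a Bmal1 knockout clone of YUMM2.1 carrying either an empty vector (EV) or wild-type Bmal1 (WT-Bmal1). The aC3 response was taken as EV against WT-Bmal1, so that both contrasts set cells without functional Bmal1 against cells with it, in 2 libraries per group. The contrasts differ in cell line and in how Bmal1 is supplied, and they share no library. Among 15552 genes tested in the 8 libraries, 173 (1.11%) responded differently, with 94 more positive and 79 more negative in B16-F10. Of the 64 genes called in B16-F10, 36 responded differently. The 64 were picked from the same B16-F10 libraries that enter this test, which raises that share. Starting levels also differed between the lines. Hoxb9, Pygl, Car8 and Mpped2 were at 0 CPM in all 4 aC3 libraries. Lamb1, scaled over all 40 libraries, was at 220 to 291 CPM in aC3 and at 2.19 and 1.99 CPM in B16-F10 Ctrl. In aC3 the edgeR test called 18 of the 15552 genes (0.116%), so few genes could pass in both lines. Nr1d2 was the only one of the 64 past the threshold in both, at -2.37 in B16-F10 and -1.57 in aC3. In B16-F10 its edgeR adjusted p was 0.059 and 0.069 without Ctrl replicate 1 and 2. The count of 173 rested on single libraries, since it was 33 and 52 without a Ctrl library, 1197 and 4778 without a Bmal1 KO library and between 7 and 24 without any one aC3 library.

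Among the genes whose responses differed, Lamb1 had a log2 response of 0.35 in aC3 and the difference was 3.59 (standard error 0.18, edgeR adjusted p = 0.00044), and Col4a1 had 0.33 in aC3 and a difference of 3.24. Akap13 was at -0.55 in aC3, with a difference of -2.76 (edgeR adjusted p = 0.0033). In the ATF4 list, 8 of 23 genes tested responded differently, all more negative in B16-F10 (Atf4, Atf5, Trib3, Asns, Phgdh, Mthfd2, Slc3a2 and Sesn2). The median of that list was -0.83 in B16-F10 and 0.33 in aC3, where 15 genes were above 0 and 8 below. For Asns the log2 response was 0.57 in aC3 and the difference was -1.69 (edgeR adjusted p = 0.0060). Hypoxia genes outside glycolysis had medians of -0.51 in both lines.

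**Figure D5:**
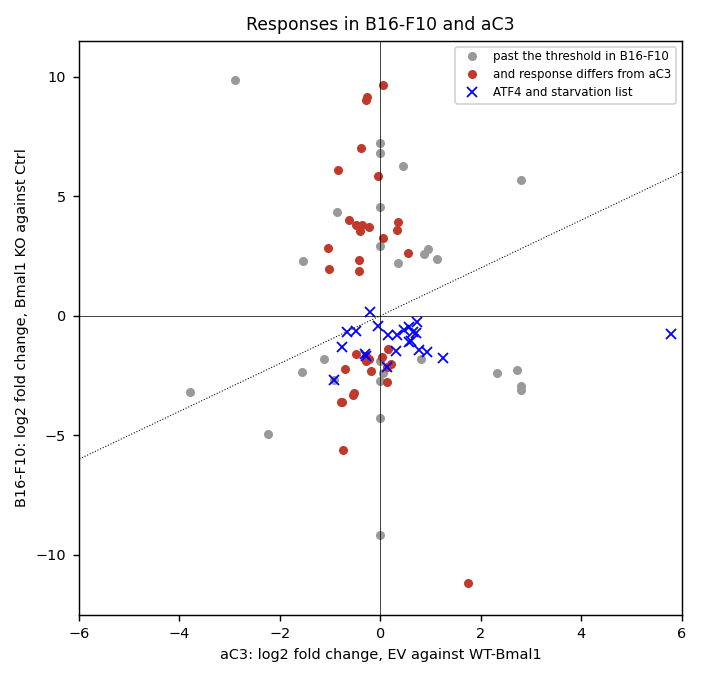
Log2 fold change in B16-F10 (Bmal1 KO against Ctrl, vertical) against that in aC3 (EV against WT-Bmal1, horizontal), from 1 fit of 8 libraries. Circles are the 64 genes called in B16-F10, red where the responses differed (36 genes), crosses are the ATF4 list, and the dotted line marks equal responses.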

How the data were processed

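RNA was extracted with TRIzol and treated with DNase, and 100 ng was made into QuantSeq forward 3′ libraries and read as single 75 bp reads on a NextSeq 500. The authors aligned reads to mm10 with bowtie2 and deposited RSEM estimated counts per Ensembl gene. The study's methods and the submitters' processing notes name different RSEM versions, and the strand used in counting is not given in the sources used here. RSEM can divide reads between near-identical copies.

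Estimated counts were whole or rounded to whole numbers. B16-F10 Bmal1 KO and Ctrl, with 2 libraries each, were compared with edgeR 4.0.16 (R 4.3.3; TMM, filterByExpr, quasi-likelihood test, Benjamini-Hochberg adjusted p under 0.05), as was the interaction with the 4 aC3 libraries. A 2 against 2 permutation cannot give a two-sided p below 0.333. Alternatives were DESeq2 1.42.0, DESeq2 size factors, no filter, a mean of at least 10 counts, 1 fit of 40 libraries, a replicate block, an absolute log2 fold change of at least 1 and each library left out. Subtracting the median of each chromosome was chosen after seeing the data. Gene models are GENCODE M21 (GRCm38). Tests were tried on simulated data, in which both groups were given the same spread for each gene, unlike the Bmal1 KO and Ctrl libraries. In the B16-F10 comparison 19.1% of edgeR calls and 28.5% of DESeq2 calls were false there, above the nominal 5%. Of genes given a log2 change of 2, edgeR recovered 71% and DESeq2 75%. Of genes given a log2 change of 1, they recovered 5% and 23%.

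The members and lists were chosen with earlier results of these data known. Genes named were Arntl, the 15 largest changes in each direction among genes that averaged 50 counts or more with separate groups, list members past the threshold or else the 3 with the smallest p, and the 5 largest differences in mean CPM in each direction. All other named genes were chosen after their values were seen. Genes with 0 counts in a group were compared with 3 counts per library. Some genes and 1 list are not reported here.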

Additional observations from a re-analysis of the deposited data

Results flagged for a closer look

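Between B16-F10 and aC3, 173 genes differed in response by the edgeR interaction test, and those singled out for a closer look are given here as the log2 response in B16-F10 minus that in aC3. Differences below 0 were found for Akap13 (-2.76) and the transcript inside it Gm44694 (-2.85), Stc1 (-4.86), Creb5 (-2.70), Map1a (-2.91), Snord13 (-2.81), Axl (-2.80), Cdh2 (-1.39) and Klf4 (-1.43). In the amino acid starvation list they were found for Atf5 (-2.29), Trib3 (-1.39) and Sesn2 (-1.66), and outside that list for Pck2 (-1.76) and Aldh1l2 (-1.60).

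Differences above 0 were found for the basement membrane genes Lamb1 (3.59), Col4a1 (3.24) and Col4a2 (1.74), for the adhesion and channel genes Cntn1 (4.65) and Gja1 (3.92), and for P2ry1 (4.31), Pabpc4l (5.91), Pafah1b3 (4.16), Mageh1 (6.93), Cited1 (2.98), Etv5 (2.04) and Met (1.27). Some differences in either direction rest on low levels in a line. Scaled over all 40 libraries, Etv5 was at 0.63 to 2.54 CPM in B16-F10 and at 141 to 245 CPM in aC3. In aC3, Cited1 was at 0.83 to 2.08 CPM and Stc1 at 0.80 to 1.70 CPM. For 1700030C10Rik (-12.93) and Hapln4 (9.41), a B16-F10 group was at 0 counts, and the fitted difference depends on the prior count and is no measure of size.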

How the results depend on the processing

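The 64 B16-F10 calls became 390 with DESeq2, 444 without a filter, 1952 in 1 fit of 40 libraries and 249 with a replicate block, and all 64 were kept in each. Leaving out 1 library gave 40 to 6612 calls, 40 without Ctrl replicate 2, 52 without Ctrl replicate 1, and 6612 and 2213 without Bmal1 KO replicate 1 and 2. The correlation across genes of the replicate differences was 0.0904, which over 2 pairs cannot decide whether replicate numbers pair the libraries. The 173 genes that differed from aC3 became 378 with DESeq2, 835 without a filter, 793 in the fit of 40 libraries and 96 with the replicate block, and 7 to 4778 with 1 library left out. DESeq2 size factors, a mean of at least 10 counts and an absolute log2 fold change of at least 1 left both counts within 1.5 times. Of 1637 values for 149 named genes, 10 reversed, and of 385 values for list medians 75 moved by more than the replicate spread. With 1 library left out, the log2 fold change ranged from -0.015 to 1.31 for Rps12, -0.029 to 0.95 for Cdh1, -3.23 to 0.15 for Amd2, -2.34 to 0.21 for Hmga1 and -15.81 to 0.12 for Rps12-ps3, where the end nearer to or past 0 came from leaving out Bmal1 KO replicate 2. It ranged from -1.71 to 0.13 for Lyz2, -0.31 to 0.19 for Arntl (0.03 without Bmal1 KO replicate 2) and -5.39 to 1.34 for Gstp2, which was at -1.78 with the replicate block. Where a lone library was left, it was assumed to vary like the other group. The causes were not tested.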

Other observations

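Within B16-F10, reads of near-identical gene copies were divided differently in Bmal1 KO replicate 2 than in the other 3 libraries, while the sums were less uneven. Amd2 took 81.5% and 78.0% of the summed Amd1 and Amd2 CPM in Ctrl and 79.0% in Bmal1 KO replicate 1, but 8.37% in replicate 2, and the sum lay between 458 and 514 CPM. Hmga1b took 0.643% to 0.889% of the sum with Hmga1 in the other 3 libraries and 85.0% in Bmal1 KO replicate 2. Rps12-ps3 took 38.01% to 40.8% of the sum with Rps12 in those libraries and 0% in Bmal1 KO replicate 2. Gstp2 took 8.91% to 17.5% of the sum with Gstp1 and 0.106% in Bmal1 KO replicate 2, where the sum was also the highest, at 2378 CPM against 1127 to 1521 CPM. The cause was not tested.

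The Bmal1 KO pair was the least alike of the 20 replicate pairs in the series. Over 8923 genes its SD of the log2 CPM difference was 0.600, against 0.199 for the B16-F10 Ctrl pair and 0.180 to 0.436 for the 19 other pairs.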
